A study of Mus musculus with 16 samples.

Results

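The cone phototransduction genes measured here are the 10 genes that encode the light-response machinery of mouse cone photoreceptors: the opsins Opn1sw and Opn1mw, the transducin subunits Gnat2, Gnb3 and Gngt2, the phosphodiesterase subunits Pde6c and Pde6h, the channel subunits Cnga3 and Cngb3, and the arrestin Arr3. They were picked by gene symbol, and all 10 were found among the 19495 genes listed in all 3 deposited tables. The libraries were made from whole retinas of C57BL/6 mice, adults of around 6 weeks, by ribosomal RNA depletion and single-read RNA sequencing. Retinas of the GFP group (3 libraries, replicates 2 to 4), the HDAC5AA group (4 libraries) and the HDAC5DAD group (4 libraries) had received AAV2 in the vitreous carrying GFP, HDAC5AA or HDAC5DAD, and the optic nerve was crushed 2 weeks later and the retina collected 4 days after the crush. The 4 libraries of the Uninjured group came from retinas without crush, for which the labels name no virus, so that virus and crush cannot be told apart in any comparison with them. HDAC5 is a class IIa histone deacetylase; what AA and DAD alter in it and which promoter drives the vectors are not stated in the labels, and the cells meant to express the vectors are retinal ganglion cells, not cones. Nor is it stated whether each library is a different animal; the p-values rest on the spread among libraries, and that spread could be partly technical.

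In a cone, light changes the shape of an opsin, which activates the G protein transducin. Transducin removes the brake that the inhibitory gamma subunit puts on a phosphodiesterase, the enzyme breaks down cyclic GMP, and the cyclic nucleotide-gated channel of the outer segment closes. Arrestin binds the spent opsin and ends its signal. Rods run the same cascade with a separate set of genes, and in the mouse retina rods far outnumber cones. Many mouse cones make both opsins, with more middle wavelength opsin in the dorsal and more short wavelength opsin in the ventral retina. Gnb3 is the member least particular to cones, since ON bipolar cells, which receive the photoreceptor signal, use it as well.

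The windows around the annotated starts are shown for 4 members, the opsins, whose ratio is reported below, Gnat2, the alpha subunit set against Gnb3, and Arr3, the member with the widest spread within a group. Each is 250 bases before to 50 bases after the start, 5′ to 3′ on the gene's own strand, from RefSeq on GRCm38.p6. Capitals mark TAATC, the core letters recognised by the photoreceptor homeodomain factor CRX, on either strand (GATTA when read on the other one).
Opn1sw (chr6:29380464-29380763, minus strand): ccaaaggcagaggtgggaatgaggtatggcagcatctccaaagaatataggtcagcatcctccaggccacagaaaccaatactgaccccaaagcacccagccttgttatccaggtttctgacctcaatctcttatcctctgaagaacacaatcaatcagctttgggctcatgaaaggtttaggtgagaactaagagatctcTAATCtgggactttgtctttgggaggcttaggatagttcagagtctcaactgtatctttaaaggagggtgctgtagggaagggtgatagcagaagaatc
Opn1mw (chrX:74127216-74127515, plus strand): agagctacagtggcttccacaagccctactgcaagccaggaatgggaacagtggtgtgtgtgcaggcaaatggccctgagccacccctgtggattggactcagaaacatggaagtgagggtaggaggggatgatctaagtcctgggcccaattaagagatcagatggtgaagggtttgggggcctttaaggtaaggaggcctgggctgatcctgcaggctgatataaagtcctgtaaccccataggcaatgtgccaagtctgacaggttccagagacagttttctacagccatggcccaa
Gnat2 (chr3:108092816-108093115, plus strand): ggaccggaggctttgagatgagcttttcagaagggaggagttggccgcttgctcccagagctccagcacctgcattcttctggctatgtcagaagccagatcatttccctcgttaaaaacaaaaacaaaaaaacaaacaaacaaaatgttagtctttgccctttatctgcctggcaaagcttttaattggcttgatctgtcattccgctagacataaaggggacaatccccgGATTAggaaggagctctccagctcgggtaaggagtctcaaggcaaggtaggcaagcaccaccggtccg
Arr3 (chrX:100605247-100605546, plus strand): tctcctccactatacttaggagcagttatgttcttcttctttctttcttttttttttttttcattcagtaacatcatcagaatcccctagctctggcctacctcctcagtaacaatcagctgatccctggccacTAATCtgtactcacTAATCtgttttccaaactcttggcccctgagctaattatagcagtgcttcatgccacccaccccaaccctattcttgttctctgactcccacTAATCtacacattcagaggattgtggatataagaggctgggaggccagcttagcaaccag

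Arr3 held 3 copies of TAATC, Gnat2 and Opn1sw held 1 each, and the Opn1mw window held none. Windows were at hand for 6 of the 10 members, 7 windows in all with the pair of Cnga3, and 3 of these 7 held TAATC, against 22.0% of all 32851 windows of the same length. The longer form TAATCC, which contains TAATC, was found in 1 of the 7, that of Gnat2, against 7.06% of all windows. AGGTCA, a half-site of nuclear receptors, occurred 2 times in the Opn1sw window and in no other of the 7, against 16.3% of all windows. TATAAA was found in 2 of the 7, Opn1mw and 1 of the Cnga3 windows, against 13.6%. These are matches of letters on both strands, not sites shown to be bound, and the windows of Gnb3, Gngt2, Pde6c and Cngb3 were not used here.

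Recovered reads per library ran from 10939457 to 30970658, and the least read member, Cnga3, still had 189 reads in its lowest library. The 10 members together took 0.180% to 0.243% of the reads of a library. Features holding ribosomal RNA sequence took 0.0212% to 9.87% of reads, and 6 libraries had less than 1%, namely replicates 1 and 2 of HDAC5AA and replicates 2 and 3 of both HDAC5DAD and Uninjured; no GFP library did. Gnat1, rod transducin alpha and a defining photoreceptor transcript, averaged 187109, 194737 and 182752 normalised reads in GFP, HDAC5AA and HDAC5DAD retinas, and 211126 in Uninjured retinas. The labelled crush was read against ganglion cell markers: the summed level of 12 ganglion cell markers was 9199 to 10434, 9997 to 11110 and 9575 to 11956 normalised reads in GFP, HDAC5AA and HDAC5DAD retinas, and 19180 to 21943 in Uninjured retinas. Levels are given as normalised reads, that is, recovered reads divided by a size factor computed over all 15 libraries; log2 fold changes against Uninjured were fitted on each pair's own deposited values.

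**Figure D1:**
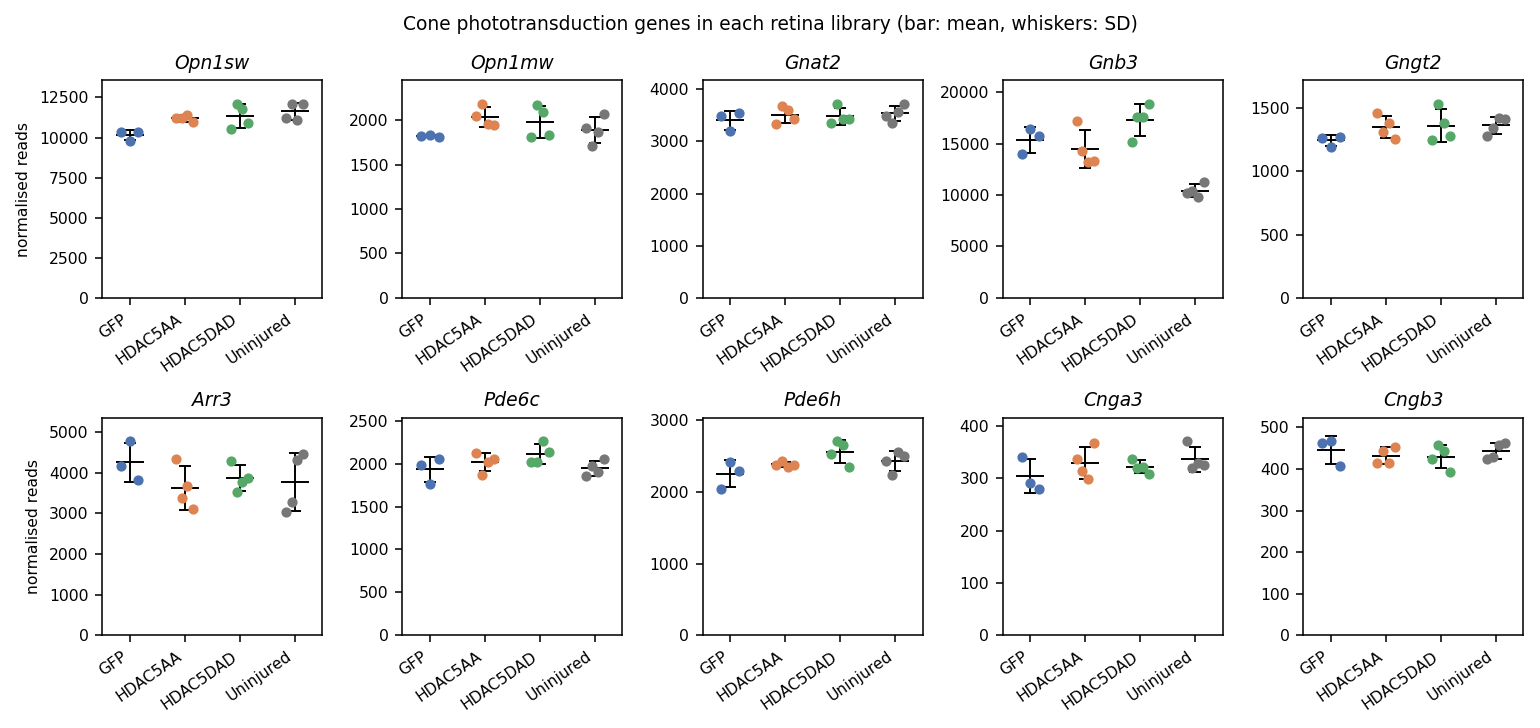
Normalised reads (linear axes from 0) of the 10 cone genes in each library of the GFP (n = 3), HDAC5AA, HDAC5DAD and Uninjured (n = 4 each) groups. Points are libraries, bars are group means and whiskers are SD. All 11 points of Gnb3 in the injured groups lie above its 4 Uninjured points, and the Arr3 points of the Uninjured group fall into a lower and a higher pair.

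Across the 10 members, 1 gene, Gnb3, rose in all 3 injured groups, and Opn1sw fell in the GFP group. The other 8 members did not pass the test in any comparison. Among all genes tested with limma (Benjamini-Hochberg adjusted p under 0.05), 11.4% passed in GFP, 8.55% in HDAC5AA and 13.3% in HDAC5DAD against Uninjured, so that the counts of 2, 1 and 1 of 10 members lie near that background. Higher calls alone made up 5.57% in GFP, 5.38% in HDAC5AA and 7.8% in HDAC5DAD of the genes tested, and lower calls 5.83% in GFP. Lower calls numbered 625 of 19714 genes in HDAC5AA and 1091 of 19956 in HDAC5DAD. Of the genes called in GFP, 48.9% were higher, and 61.0% were with scaling by total reads. The median log2 fold change over the members was -0.05 in GFP, -0.02 in HDAC5AA and 0.02 in HDAC5DAD, beside 0.01, -0.01 and -0.01 over all genes tested. The 3 comparisons share the same 4 Uninjured libraries, so a member that moves alike in them is not seen 3 independent times. In whole retina, fewer cells of a type and less RNA per cell cannot be told apart.

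Gnb3 (ENSMUSG00000023439, mm10 chromosome 6, 124834240 to 124840275, minus strand; protein coding) encodes the beta subunit of cone transducin. It had 13944, 16375 and 15696 normalised reads in GFP retinas. HDAC5AA retinas held 17150.3, 14271, 13181 and 13266, and HDAC5DAD retinas held 15115, 17605, 17557 and 18886. Uninjured retinas held 10164, 10428, 9781 and 11288. Every injured library lay above every Uninjured library; groups did not overlap in this direction for 10.5%, 7.23% and 9.48% of all genes in GFP, HDAC5AA and HDAC5DAD. HDAC5AA replicate 1 stood above the other 3 libraries of its group. The log2 fold change was 0.55 (SE 0.06) in GFP (limma adjusted p = 2.64e-06). In HDAC5AA it was 0.47 (SE 0.08), with adjusted p = 0.000779. In HDAC5DAD it was 0.73 (SE 0.06), with adjusted p = 1.39e-07. Gnb3 passed under every alternative that was run, although its HDAC5AA value was 0.30 (adjusted p = 0.0115) when only libraries with at least 1% ribosomal RNA reads were kept, which leaves out HDAC5AA replicates 1 and 2 and Uninjured replicates 2 and 3. The authors' deposited table gave 0.53, 0.44 and 0.70 for Gnb3 in GFP, HDAC5AA and HDAC5DAD.

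Because Gnb3 is also a bipolar cell gene, the levels of 12 bipolar cell markers stand beside it. Their summed level was 24886 to 26312 normalised reads in GFP, 25519 to 29311 in HDAC5AA and 25244 to 27447 in HDAC5DAD retinas, and 27400 to 32215 in Uninjured retinas, with no marker at 0 in any library. Of the 12 bipolar markers, 6 fell in GFP retinas, 1 in HDAC5AA retinas and 5 in HDAC5DAD retinas, and none rose. Pcp2, a Purkinje and bipolar cell protein, fell in all 3 groups, by 0.41, 0.22 and 0.22 on the log2 scale in GFP, HDAC5AA and HDAC5DAD. In GFP, Cabp5, a calcium-binding protein of bipolar cells, fell by 0.43 and Vsx1, a homeodomain factor of cone bipolar cells, by 0.36. In HDAC5DAD, Gnao1, the alpha subunit of the G protein that ON bipolar cells use, fell by 0.40 and Isl1, a homeodomain factor of ON bipolar and ganglion cells, by 0.27. Gng13, the gamma subunit that pairs with Gnb3 in ON bipolar cells, had log2 fold changes of -0.37 (adjusted p = 0.00360) in GFP, -0.23 (adjusted p = 0.0512) in HDAC5AA and -0.25 (adjusted p = 0.0186) in HDAC5DAD. The median log2 fold change of the 12 markers was -0.34, -0.16 and -0.21 in GFP, HDAC5AA and HDAC5DAD, on the other side of 0 from Gnb3. Whether the higher Gnb3 level came from cones, bipolar cells or other cells was not tested.

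The other transducin subunits did not follow Gnb3. Gnat2 (ENSMUSG00000009108, chromosome 3, 108092789 to 108101432, plus strand), the alpha subunit that carries the signal to the phosphodiesterase, had 3487, 3196 and 3535 normalised reads in GFP retinas. It had 3342, 3681, 3594 and 3422 in HDAC5AA retinas and 3347, 3720, 3433 and 3438 in HDAC5DAD retinas. Uninjured retinas held 3494, 3362, 3560.5 and 3725. All groups overlapped, and Gnat2 had the lowest spread of the 10 members over the 15 libraries, with a coefficient of variation of 4.32%. Its log2 fold changes were -0.06 (95% interval -0.18 to 0.06) in GFP, -0.01 (-0.12 to 0.10) in HDAC5AA and -0.02 (-0.13 to 0.09) in HDAC5DAD. Gngt2 (ENSMUSG00000038811, chromosome 11, 95837216 to 95845734, plus strand), the gamma subunit, averaged 1245 ± 44.2 normalised reads in GFP (SD, n = 3), 1351 ± 86.9 in HDAC5AA and 1359 ± 131 in HDAC5DAD, against 1363 ± 64.0 in Uninjured retinas (n = 4 each). Its GFP libraries all lay below its Uninjured libraries, as for 11.4% of all genes, but the log2 fold change of -0.13 (SE 0.06) did not pass (adjusted p = 0.184). Gngt2 shares 234 exon bases with Abi3 on the opposite strand, 12.5% of its annotated exon length, and how strand was handled in counting is not given in the sources used here; Abi3 itself averaged 13.5 to 17.2 normalised reads in the 4 groups.

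Within a library, the ratio of Gnb3 to Gnat2 does not depend on scaling. Per kilobase of the annotated principal transcript (1846 and 2054 bases) the ratio was 4.45, 5.70 and 4.94 in GFP retinas. It was 5.71, 4.31, 4.08 and 4.31 in HDAC5AA retinas and 5.03, 5.27, 5.69 and 6.11 in HDAC5DAD retinas, against 3.24, 3.45, 3.06 and 3.37 in Uninjured retinas. No injured library overlapped the Uninjured range. The ratio uses the same Gnb3 reads as above, over the member with the lowest spread, so it is not separate support for the rise of Gnb3.

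**Figure D2:**
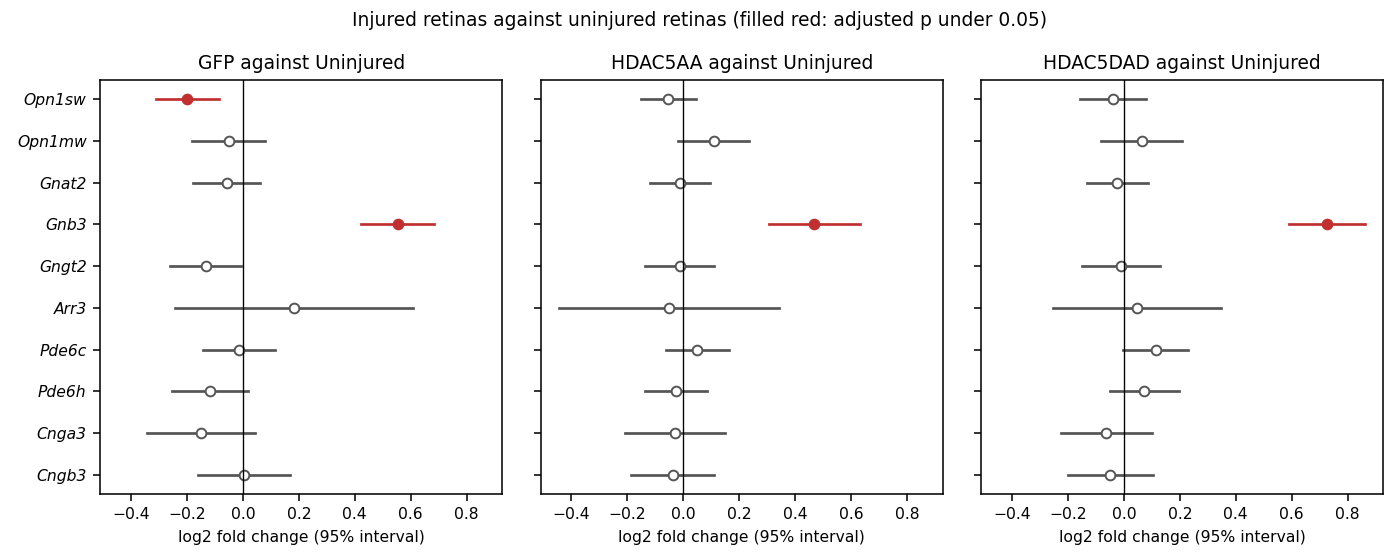
Log2 fold change (x axis, with its 95% interval) of each cone gene (y axis) in GFP, HDAC5AA and HDAC5DAD against Uninjured retinas, from limma; filled red marks are adjusted p under 0.05. Gnb3 stands to the right in all 3 panels (0.55, 0.47 and 0.73), Opn1sw is marked at -0.20 in GFP, and Arr3 has the widest intervals.

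Of the opsins, the short wavelength one fell in the GFP group and the middle wavelength one did not pass in any group. Opn1sw (ENSMUSG00000058831, chromosome 6, 29376671 to 29388468, minus strand) had 10321, 9797 and 10344 normalised reads in GFP retinas. It had 11193, 11207, 11437 and 10945 in HDAC5AA retinas and 10553, 12119, 11809 and 10884 in HDAC5DAD retinas. Uninjured retinas held 11214, 12095, 11108 and 12108. The GFP libraries lay below all Uninjured libraries, whereas the HDAC5AA and HDAC5DAD libraries overlapped them. In GFP the log2 fold change was -0.20 (SE 0.05), with limma adjusted p = 0.0189. This call was lost with scaling by total reads (-0.15, limma adjusted p = 0.0597). With the ribosomal RNA class as a batch term the value stayed at -0.20 but did not pass (adjusted p = 0.103). Libraries with at least 1% ribosomal RNA reads alone also gave -0.20 (adjusted p = 0.0738). No GFP library is under 1%, so both settings set GFP against Uninjured replicates 1 and 4. The call was also lost without GFP replicate 3 (-0.17, adjusted p = 0.0839), GFP replicate 4 (-0.21, 0.0603) or Uninjured replicate 4 (-0.18, 0.0612). Against Uninjured, HDAC5AA had -0.05 (95% interval -0.15 to 0.04) and HDAC5DAD had -0.04 (-0.16 to 0.08). Opn1sw shares 397 exon bases, 15.5% of its annotated exons, with Calu on the opposite strand. The part of Calu reads in the Opn1sw values was not tested.

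Opn1mw (ENSMUSG00000031394, chromosome X, 74127464 to 74150760, plus strand), the middle wavelength opsin, had 1826, 1835 and 1810.2 normalised reads in GFP retinas. It had 2045, 2186, 1959 and 1945.5 in HDAC5AA retinas and 1812, 2174, 2094.5 and 1835 in HDAC5DAD retinas. Uninjured retinas held 1915, 1707, 1868 and 2066.5. The 3 GFP libraries were nearly equal and lay inside the Uninjured range. The log2 fold changes were -0.05 (95% interval -0.18 to 0.08) in GFP, 0.11 (-0.02 to 0.24) in HDAC5AA and 0.06 (-0.08 to 0.21) in HDAC5DAD, and none passed.

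The log2 ratio of Opn1sw to Opn1mw reads compares the opsins within a library. GFP retinas had log2 ratios of 2.50, 2.42 and 2.51. HDAC5AA retinas had 2.45, 2.36, 2.55 and 2.49, and HDAC5DAD retinas had 2.54, 2.48, 2.50 and 2.57, against 2.55, 2.82, 2.57 and 2.55 in Uninjured retinas. Uninjured replicate 2 stood apart above all others, and the other 3 Uninjured libraries lay close to the upper HDAC5AA and HDAC5DAD values. All GFP and HDAC5AA libraries lay below the Uninjured range, and HDAC5DAD overlapped it. The difference of the mean log2 ratio was -0.16 in HDAC5AA against Uninjured. There the exact two-sided permutation test over the libraries gave p = 0.0286, the smallest that 4 against 4 allows. After Benjamini-Hochberg adjustment over the 6 comparisons this exact permutation p was 0.171. A single comparison at the smallest p cannot pass after that adjustment, so 0.171 does not decide whether the ratios differ. The difference was -0.15 in GFP (exact permutation p = 0.0857 over 35 splits, adjusted 0.229) and -0.10 in HDAC5DAD (exact permutation p = 0.114, adjusted 0.229) against Uninjured. Between HDAC5AA and GFP, HDAC5DAD and GFP, and HDAC5AA and HDAC5DAD the difference was -0.01, 0.04 and -0.06, and the adjusted exact permutation p were 0.800, 0.377 and 0.377. Without Uninjured replicate 2 the differences from Uninjured were -0.10 in HDAC5AA, -0.08 in GFP and -0.04 in HDAC5DAD. In libraries with at least 1% ribosomal RNA reads alone they were -0.03 in HDAC5AA, -0.07 in GFP and 0.00 in HDAC5DAD, where the smallest p the libraries allow is above 0.05.

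**Figure D3:**
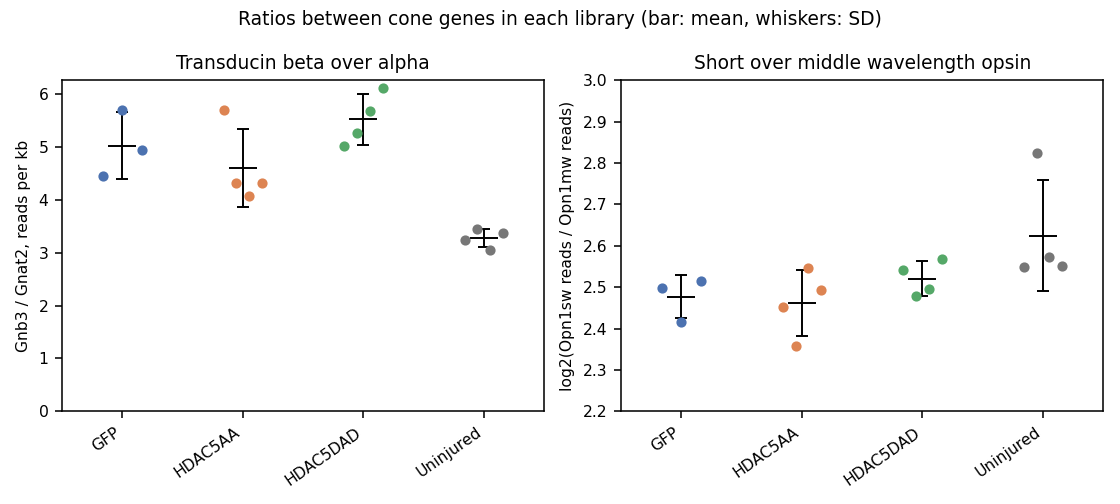
Left, the ratio of Gnb3 to Gnat2 reads per kilobase in each library (axis from 0); right, the log2 ratio of Opn1sw to Opn1mw reads (axis from 2.2 to 3.0). Points are libraries, bars are means and whiskers are SD over n = 3 (GFP) or 4 libraries. The Gnb3 to Gnat2 ratio is 4.08 or more in every injured library and 3.45 or less in every Uninjured library, and 1 Uninjured library, replicate 2, stands at 2.82 in the right panel.

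A dorsoventral list was read beside the opsin ratio, since the opsins are graded along that axis. Of its 14 genes, 2 rose in GFP, 2 in HDAC5AA and 3 in HDAC5DAD, and 1 fell in HDAC5DAD. Cyp26a1, which degrades retinoic acid, had log2 fold changes of 0.79, 1.08 and 1.21 in GFP, HDAC5AA and HDAC5DAD, and Aldh1a1, which makes retinoic acid in the dorsal retina, had 0.27, 0.41 and 0.55, all past the threshold. Tbx2, a dorsal T-box factor, fell by 0.20 in HDAC5DAD, and Bmp4, a dorsal signal, rose there by 1.06. Bmp4 was low, and its libraries overlapped, at 20.5 to 28.5 normalised reads in HDAC5DAD against 6.13 to 22.8 in Uninjured retinas. In GFP its log2 fold change was 1.48 and did not pass (limma adjusted p = 0.195). The dorsal factor Tbx5 and the ventral factor Vax2 did not pass in any of the 3 groups.

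Neither phosphodiesterase subunit passed. Pde6c (ENSMUSG00000024992, chromosome 19, 38132781 to 38183958, plus strand), the catalytic subunit, averaged 1933 ± 148 normalised reads in GFP (SD, n = 3), 2016 ± 107 in HDAC5AA and 2110 ± 115 in HDAC5DAD, against 1946 ± 85.0 in Uninjured retinas (n = 4 each). Its largest log2 fold change against Uninjured was 0.11 in HDAC5DAD (95% interval -0.00 to 0.23, adjusted p = 0.221). Pde6h (ENSMUSG00000064330, chromosome 6, 136923832 to 136968865, plus strand), the inhibitory gamma subunit, averaged 2252 ± 190 in GFP, 2385 ± 35.1 in HDAC5AA and 2562 ± 157 in HDAC5DAD, against 2432 ± 141 in Uninjured retinas. Its log2 fold changes were -0.12, -0.03 and 0.07 in GFP, HDAC5AA and HDAC5DAD, with 95% intervals that all include 0.

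The channel subunits were the lowest members and did not pass either. Cnga3 (ENSMUSG00000026114, chromosome 1, 37214434 to 37263384, plus strand), the main subunit, averaged 304 ± 32.5 normalised reads in GFP (SD, n = 3), 329 ± 30.1 in HDAC5AA and 322 ± 12.1 in HDAC5DAD, against 336 ± 23.7 in Uninjured retinas (n = 4 each). Cngb3 (ENSMUSG00000056494, chromosome 4, 19280850 to 19510623, plus strand), the modulatory subunit, averaged 446 ± 33.4, 431 ± 20.2 and 429 ± 28.0 in GFP, HDAC5AA and HDAC5DAD, against 443 ± 19.0 in Uninjured retinas. The log2 fold changes of Cnga3 were -0.15, -0.03 and -0.06, with 95% intervals reaching from -0.34 to 0.15 over the 3 comparisons. Those of Cngb3 were 0.00, -0.04 and -0.05, with 95% intervals reaching from -0.20 to 0.17. Per kilobase the pair were close to equal: the ratio of Cnga3 to Cngb3 averaged 0.904 ± 0.0760 in GFP, 1.01 ± 0.0743 in HDAC5AA and 0.995 ± 0.0631 in HDAC5DAD, against 1.01 ± 0.104 in Uninjured retinas.

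Arr3 (ENSMUSG00000060890, chromosome X, 100605497 to 100618493, plus strand), cone arrestin, varied widely within groups. It had 4155.5, 4777 and 3823 normalised reads in GFP retinas. It had 4336, 3376, 3678 and 3095 in HDAC5AA retinas and 4292, 3534, 3765 and 3856 in HDAC5DAD retinas. Uninjured retinas held 3039, 3285, 4309.8 and 4466, with replicates 1 and 2 low and replicates 3 and 4 high, a coefficient of variation of 19.0%. That split does not follow the ribosomal RNA class, which is under 1% in Uninjured replicates 2 and 3. The log2 fold changes were 0.18 (95% interval -0.24 to 0.61) in GFP, -0.05 (-0.44 to 0.34) in HDAC5AA and 0.05 (-0.25 to 0.35) in HDAC5DAD, so that changes of these sizes were not detectable here.

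Compared per kilobase of the annotated principal transcript, the members spanned from 90.5 (Cnga3) to 9367 (Gnb3) normalised reads per kilobase in HDAC5DAD and from 94.1 (Cngb3) to 5642 (Gnb3) in Uninjured retinas. In all 4 groups the order was Gnb3, Opn1sw, Arr3, Gnat2, Opn1mw, Gngt2, Pde6c, Pde6h and then the channel subunits. In Uninjured retinas Gnb3 (5298 to 6115 per kilobase) and Opn1sw (4609 to 5024) were neighbours that did not overlap. With merged exons as the length this top pair changed places in Uninjured retinas (3957 for Gnb3 and 4549 for Opn1sw) but not in GFP, HDAC5AA or HDAC5DAD retinas, and Gnat2 and Opn1mw changed places in all 4 groups. Cnga3 and Cngb3 overlapped in every group, as did Gnat2 and Opn1mw in all groups but GFP, and Gngt2 and Pde6c in all but Uninjured. The order depends on which transcript is taken as the length. Annotated coding transcripts run from 211 to 5940 bases for Pde6h, 408 to 2410 for Opn1sw, 651 to 3554 for Cnga3, 587 to 2054 for Gnat2, 423 to 1359 for Arr3, 498 to 1587 for Gngt2 and 595 to 1233 for Opn1mw, whereas Gnb3 and Cngb3 have 1 each and Pde6c has 2 of similar length.

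Between the injured groups no member passed. With limma, 0 of 10 members passed in HDAC5AA against GFP, HDAC5DAD against GFP and HDAC5AA against HDAC5DAD, where 0%, 0% and 0.0103% of 19495 genes did; edgeR and DESeq2 also called 0 members in each, with 2, 2 and 1 members at an unadjusted p under 0.05 in both. At an unadjusted p under 0.05, limma had 2 members in HDAC5AA against GFP (Opn1sw and Opn1mw), 3 in HDAC5DAD against GFP (Opn1sw, Pde6c and Pde6h) and 1 in HDAC5AA against HDAC5DAD (Gnb3). Among all 19495 genes, 1284, 2238 and 1322 had such a limma p in the 3 comparisons. With edgeR 1252, 2335 and 1281 of 18473 genes did, and with DESeq2 979, 2017 and 1048 of 19495. Opn1sw lay above every GFP library in all HDAC5AA and all HDAC5DAD libraries, with log2 fold changes of 0.14 (SE 0.05, adjusted p = 0.738) and 0.16 (SE 0.05, adjusted p = 0.310); groups did not overlap in that direction for 4.22% and 5.81% of all genes. Opn1mw did not overlap between HDAC5AA and GFP either (0.16, SE 0.07, adjusted p = 0.754). Gnb3 averaged 14467 ± 1856 normalised reads in HDAC5AA and 17291 ± 1576 in HDAC5DAD (SD, n = 4 each), a log2 fold change of -0.26 (95% interval -0.43 to -0.09, adjusted p = 0.654) with overlapping libraries. Without HDAC5AA replicate 1, the highest of its group, that value was -0.35 with adjusted p = 0.0783. HDAC5DAD against GFP gave 0.17 for Gnb3 (95% interval -0.01 to 0.36).

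**Figure D4:**
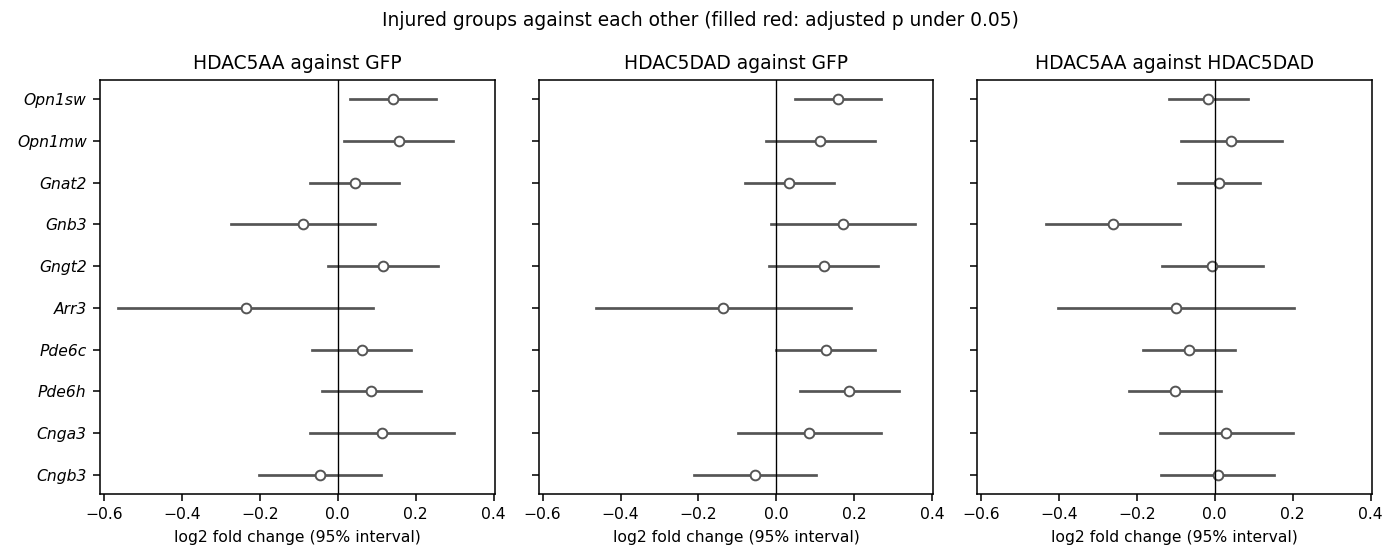
Log2 fold change (x axis, with its 95% interval) of each cone gene (y axis) in HDAC5AA against GFP, HDAC5DAD against GFP and HDAC5AA against HDAC5DAD, from limma on the 15 libraries; a filled red mark would be an adjusted p under 0.05. No mark is filled; Opn1sw stands at 0.14 and 0.16 in the first 2 panels and Gnb3 at -0.26 in the third.

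The rod counterparts were set beside the cone genes. Of 10 rod phototransduction genes, none rose in any group, 1 fell in GFP, 0 in HDAC5AA and 3 in HDAC5DAD. Among all genes tested, 1164 of 19961 fell in GFP, 625 of 19714 in HDAC5AA and 1091 of 19956 in HDAC5DAD. Pde6g, the rod gamma subunit and counterpart of Pde6h, fell by 0.22 in GFP (adjusted p = 0.0185) and by 0.27 in HDAC5DAD (adjusted p = 0.00901). Gnat1 fell by 0.21 in HDAC5DAD (adjusted p = 0.0343), and the exchanger Slc24a1 by 0.20 (adjusted p = 0.0450). Gnb1, the rod counterpart of Gnb3 that most cells also express, had -0.27, -0.15 and -0.24 in GFP, HDAC5AA and HDAC5DAD and did not pass (adjusted p = 0.345, 0.663 and 0.224). Sag, rod arrestin, had 0.21, 0.18 and 0.25 and did not pass. The median over these rod genes was -0.11 in GFP, -0.06 in HDAC5AA and -0.12 in HDAC5DAD. Whether cone and rod genes differ from each other in their response was not tested.

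**Figure D5:**
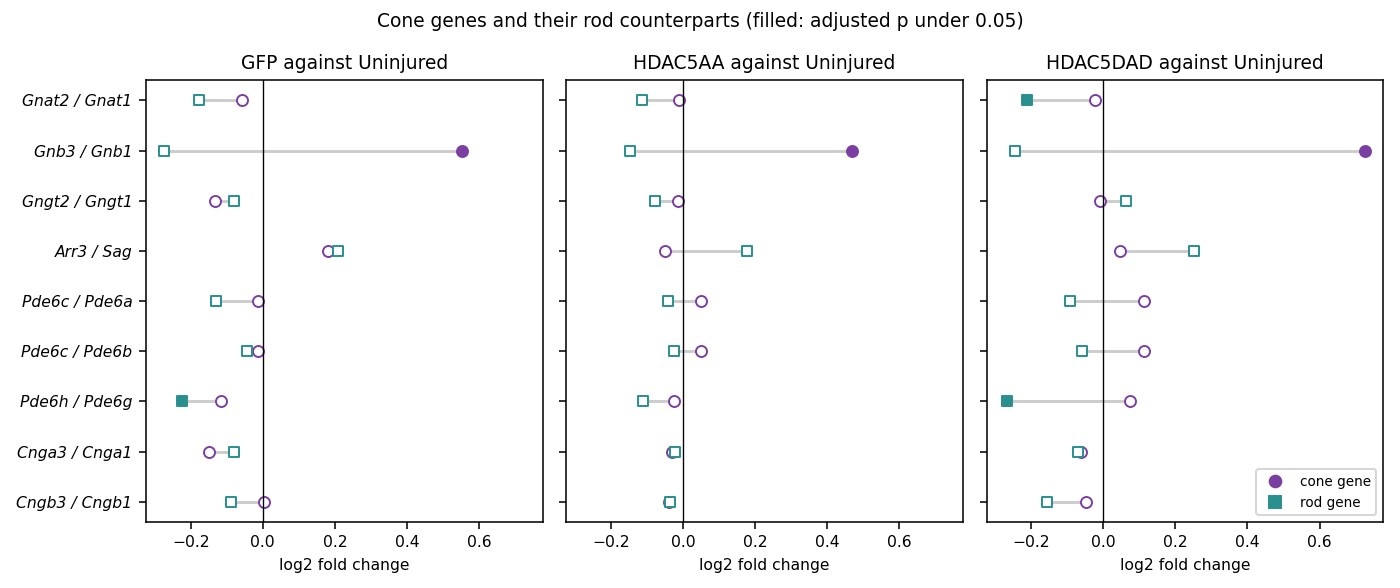
Log2 fold change (x axis) of 8 cone genes (purple circle) and their rod counterparts (teal square) against Uninjured retinas; rows are pairs, Pde6c stands with both rod catalytic subunits, and filled marks are adjusted p under 0.05. Gnb3 and Gnb1 are the farthest apart, at 0.73 and -0.24 in HDAC5DAD, and the next widest gap is between Pde6h and Pde6g, at 0.07 and -0.27 in the same panel.

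Among 12 further phototransduction genes, most of them used by both rods and cones, none rose, and 2 fell in GFP, 1 in HDAC5AA and 4 in HDAC5DAD. Pdc, phosducin, which binds the beta and gamma subunits of transducin, fell in all 3 groups, by 0.77 in GFP (adjusted p = 0.00151), 0.49 in HDAC5AA (adjusted p = 0.0189) and 0.40 in HDAC5DAD. Its normalised reads were 26742, 19908 and 27631 in GFP retinas. HDAC5AA retinas held 28988, 26035, 27736 and 37508, and HDAC5DAD retinas held 30368, 31865, 31785 and 32997, against 43654, 38088, 42029 and 43601 in Uninjured retinas. All injured libraries lay below all Uninjured libraries, the opposite side from Gnb3. Rcvrn, the calcium sensor recoverin, fell by 0.30 in GFP; Gucy2f, a guanylate cyclase that remakes cyclic GMP, fell by 0.27, Slc24a2, the cone exchanger, by 0.26 and Rgs9bp, an anchor of the complex that shuts transducin off, by 0.23 in HDAC5DAD.

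Of 12 photoreceptor transcription factors, 1 rose and 3 fell in GFP, 0 rose and 1 fell in HDAC5AA, and 2 rose and 2 fell in HDAC5DAD. Rxrg, a retinoid receptor of developing cones that ganglion cells also express, fell in all 3, by 0.59 (SE 0.12), 0.58 (SE 0.12) and 0.48 (SE 0.11) in GFP, HDAC5AA and HDAC5DAD. It averaged 103 ± 11.1, 104 ± 12.7 and 111 ± 14.8 normalised reads there, against 155 ± 6.55 in Uninjured retinas. Rorb, a nuclear receptor of photoreceptor and inner retinal neurons, fell by 0.73 in GFP and 0.44 in HDAC5DAD and had -0.43 (adjusted p = 0.365) in HDAC5AA, where replicate 4, with 10619 normalised reads, stood above the other 3 (5931 to 6583). Neurod1, a bHLH factor, rose by 0.28 in GFP and 0.17 in HDAC5DAD, Nr2e3, which holds down cone genes in rods, rose by 0.21 in HDAC5DAD, and Nrl, the rod factor, fell by 0.19 in GFP. Thrb, the thyroid hormone receptor gene that sets middle wavelength opsin in development, had 0.06, 0.14 and 0.05 and did not pass, nor did Crx, with -0.03, 0.02 and -0.02.

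Among 11 retinoid cycle genes, Rdh10, a retinol dehydrogenase, had log2 fold changes of 0.29, 0.41 and 0.68 in GFP, HDAC5AA and HDAC5DAD, all past the threshold; Abca4, the outer segment retinoid flippase, fell by 0.17 in HDAC5DAD and the others did not pass. Of 12 genes of the outer segment and its matrix, Cnnm4, a metal transporter tied to cone-rod dystrophy, had 0.48, 0.43 and 0.47, and Impg2, a matrix proteoglycan of rods and cones, had 0.34, 0.28 and 0.36, again past the threshold in each group. Rom1, a disc rim protein, fell by 0.26 in GFP and 0.15 in HDAC5AA. The remaining outer segment genes did not pass. Pigment epithelium and lens markers were read for possible carry-over of neighbouring tissue, which was not tested, and varied between libraries. The 11 pigment markers summed to 3094 to 7402 normalised reads in GFP, 2561 to 3785 in HDAC5AA and 3219 to 4555 in HDAC5DAD retinas, and 2934 to 5321 in Uninjured retinas. The 6 lens markers measured summed to 40.3 to 1725, 120 to 286 and 41.3 to 411 normalised reads in GFP, HDAC5AA and HDAC5DAD, and 35.7 to 181 in Uninjured retinas, with 1 gene at 0 in some GFP library and 2 in some Uninjured library. Of the pigment markers, Pmel fell by 1.22 in HDAC5AA, and of the lens markers Cryba1 (1.56) and Crygs (1.78) rose there. These rest on low levels. Pmel averaged 19.1 normalised reads in HDAC5AA against 43.0 in Uninjured retinas, Cryba1 32.8 against 11.8 and Crygs 8.77 against 2.49. No other pigment or lens marker passed in any group. Of 10 Mueller glia markers, 5, 5 and 7 rose in GFP, HDAC5AA and HDAC5DAD, and 1 fell in each. The part of these markers in the cone values was not tested.

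The mean centred log2 profile of the 10 members over the 15 libraries was compared with that of 12332 named genes with a mean of at least 50 normalised reads, by the root mean square of the differences. The 8 nearest were Rnf139, Trib2, Pla2g5, Rhot1, Eml1, Ilf2, Pgls and Trappc5, at 0.0379 to 0.0435 on the log2 scale. The profile is nearly flat, so genes with little change over the libraries stand closest to it.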

How the data were processed

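Ribosomal RNA-depleted RNA of whole retina was read as single reads of 50 nt, per the labels. STAR, HTSeq and DESeq2 and the build mm10 are named in the submitters' processing notes; versions, annotation and strand setting are not given in the sources used here. The authors deposited, per pair of groups, normalised count signal per gene and library, which is a whole-read count times 1 factor per library; whole reads were recovered within 0.01 for 100% of values. The authors also deposited log2 fold changes, p-values and adjusted p-values, quoted where named. GFP replicate 1 had no column and was not analysed here.

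Comparisons with Uninjured used limma 3.58.1 (trend, robust, R 4.3.3) on log2(value + 1) in each pair's table, genes with a mean of at least 1, two-sided, Benjamini-Hochberg over 19961, 19714 and 19956 genes; a fold change is on that scale. Between injured groups, 1 fit of all 4 groups used the recovered reads over median-of-ratios size factors. The edgeR quasi-likelihood test was planned as the main test only if the deposited values were whole raw counts, which they were not. Counting tools were therefore run as alternatives, edgeR 4.0.16 and DESeq2 1.42.0 on recovered reads. Tests were checked on simulated data. Coordinates and transcript lengths are from GENCODE mouse release 21. Members and lists were chosen with earlier results of these data known. All 10 members are named; of a list, up to 4 genes that passed with the largest change, plus rod counterparts; 2 listed genes are not reported here and were left out of the lists' counts. Genes named beyond this (among them Gng13 and Rorb in HDAC5AA, Bmp4 in GFP, Thrb, Crx, Tbx5 and Vax2) are given as values and were chosen after their values were seen. Abi3 is named for its overlap with Gngt2. The precision was limited. Over all genes tested, the 95% interval of a log2 fold change reached a median of 0.23, 0.22 and 0.22 to either side. These medians are for GFP, HDAC5AA and HDAC5DAD against Uninjured. Alternatives were pseudocounts, filters, scalings, tools, sets of libraries, a replicate block, a ribosomal RNA class term and leaving out each library.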

Additional observations from a re-analysis of the deposited data

Results flagged for a closer look

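The log2 ratio of Opn1sw to Opn1mw in Uninjured replicate 2 was 2.82, against 2.55 to 2.57 in the other 3 Uninjured libraries. The gap to the nearest library was 0.919 of the group's whole range, above Dixon's 95% critical value for 4 libraries. Of 33 groups of values examined, 1 was so far off, which is no more than the about 1 in 20 that chance gives. That library had the lowest Opn1mw level of all 15 (1707 normalised reads) and, with 12095, an Opn1sw level close to that of Uninjured replicate 4 (12108).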

How the results depend on the processing

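Over 117 alternatives, the count of members called kept its value or stayed within 1.5 times of it in 111. In GFP against Uninjured it was 1 in place of 2 with scaling by total reads, with the ribosomal RNA class as a batch term and in libraries with at least 1% ribosomal RNA reads alone, and 1 to 2 with a library left out; wherever it was 1, Gnb3 passed and Opn1sw did not. Genes called over the whole table numbered 2276 in GFP against Uninjured and 1456 with the class term, and 1685 in HDAC5AA against Uninjured and 863 in libraries with at least 1% ribosomal RNA reads; the cause was not tested. Gnb3 ranged from 0.50 to 0.62 in GFP, 0.30 to 0.51 in HDAC5AA and 0.65 to 0.79 in HDAC5DAD over all alternatives. Over the 1170 alternatives for single members, no called value changed sign and 56 values that were not called did, as did 4 of 69 of the opsin ratio. With the replicate number as a block the counts of members were 2, 1 and 1 against Uninjured and 0 between injured groups, and Gnb3 was 0.54, 0.47 and 0.73 in GFP, HDAC5AA and HDAC5DAD. The block left all members' calls as they were, but 1633 genes were called in GFP in place of 2276. Deviations of same-numbered libraries from their group means had correlations from -0.35 to 0.40. With only 3 or 4 libraries per group, these cannot decide whether the numbers pair the samples. All genes called in HDAC5DAD against GFP were 0 with limma, 1 with edgeR and 57 with DESeq2, and in HDAC5AA against HDAC5DAD 2, 0 and 6, none of them members. Dropping the low filter changed nothing, since every gene tested had a mean of at least 1.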

Other observations

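Genes close to Gnb3 alone, a comparison chosen after its values were seen, were Loxl4, Mvp, Pbxip1, Agtpbp1, Cerkl, Mest, Thg1l and Arl6, with a root mean square difference of 0.0813 to 0.115 in the centred log2 profile over the 15 libraries. Their group means were low in Uninjured retinas, from -0.35 to -0.48 on the centred log2 scale, and above 0 in HDAC5DAD retinas, from 0.17 to 0.39. These genes were chosen for their likeness to Gnb3, so the pattern is a description.

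The members without Gnb3 summed to 25740 to 25888 normalised reads in GFP, 25914 to 27631 in HDAC5AA and 26475 to 28593 in HDAC5DAD retinas, and 26025 to 29115 in Uninjured retinas. With Gnb3 the sums were 39832 to 42114, 39181 to 44781 and 41682 to 46198, and 36188 to 40403. The GFP libraries lay below all Uninjured libraries without Gnb3, and only Uninjured replicate 4 reached the injured range with it.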
